A study of Arabidopsis thaliana with 18 samples.

Results

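miR160 and miR167 are the microRNAs (miRNAs) that recognise the mRNAs of AUXIN RESPONSE FACTORs (ARFs), the transcription factors through which the hormone auxin changes gene expression. All entries of the deposited miRNA table of the miR160 and miR167 families were taken, guide and passenger strands alike, which gave 8 of the 161 entries, 3 of miR160 and 5 of miR167. These 8 entries stand for 11 miRNA names, because mature miRNAs of identical sequence share an entry. The table covers 18 small RNA libraries from whole 4-d-old Arabidopsis seedlings, 3 libraries in each of 6 groups of genotype and temperature. Col-0 is the wild type. The hyl1-2 mutant lacks function of HYPONASTIC LEAVES 1 (HYL1), a double-stranded RNA-binding protein that assists the RNase III enzyme DICER-LIKE 1 (DCL1). The dcl1-24/hyl1-2 seedlings carry hyl1-2 together with dcl1-24, an amino acid substitution in DCL1, and descend from hyl1-2 seeds mutagenised with ethyl methanesulfonate. All seedlings spent their first 48 h under red light at 21 °C, and the next 48 h under the same light either at 21 °C again or at 27 °C.

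In plants a MIRNA gene is transcribed into a long precursor with a hairpin, and DCL1 cuts from it a duplex of a 5p and a 3p strand. The guide strand is loaded into ARGONAUTE 1, and the passenger strand is mostly degraded. The miR160 guide acts on ARF10, ARF16 and ARF17, which are mostly repressors, and the miR167 guides act on ARF6 and ARF8, which are activators. Both families are known for roles in root, flower and seedling development.

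The mature sequences below are shown because the identity of an entry, and which entries can share reads, follow from them. They were read from the RefSeq annotation of TAIR10.1, where all 11 names were found, and the capitals mark the seed, bases 2 to 8 from the 5′ end.
miR160a-5p, miR160b and miR160c-5p: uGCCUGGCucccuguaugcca
miR160a-3p: gCGUAUGAggagccaugcaua
miR160c-3p: cGUACAAGgagucaagcauga
miR167a-5p and miR167b: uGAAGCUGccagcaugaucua
miR167d: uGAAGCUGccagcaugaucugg
miR167c-5p: uAAGCUGCcagcaugaucuug
miR167a-3p: gAUCAUGUucgcaguuucacc
miR167c-3p: uAGGUCAUgcugguaguuucacc

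The seed groups separate the families. The 3 miR160 guide names had a single sequence with 3 perfect matches in the genome, at MIR160a (AT2G39175, chr2:16340282-16340302), MIR160b (AT4G17788, chr4:9888986-9889006) and MIR160c (AT5G46845, chr5:19009158-19009178, minus strand), and their shared entry is written miR160a/b/c-5p here. The guide of MIR167a (AT3G22886, chr3:8108090-8108110) and MIR167b (AT3G63375, chr3:23406177-23406197) likewise matched 2 places and is written miR167a/b-5p. It shares its seed and its first 20 bases with miR167d (chr1:11137556-11137577), which is 22 nt long. The miR167c-5p sequence (chr3:1306750-1306770, minus strand) shares a run of 18 bases with miR167a-5p, which begins at base 3 of miR167a-5p and at base 2 of miR167c-5p, so that its seed is shifted. Reads were aligned without mismatches, and a read that stays within a shared stretch matches several loci. How such reads were divided between miR167a/b-5p and miR167d cannot be seen in the table.

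The precursors of which both strands have an entry are shown as the RefSeq hairpins of TAIR10.1, with the strands of the table in capitals, since the strand ratios described later come from them.
MIR160a (chr2:16340279-16340363): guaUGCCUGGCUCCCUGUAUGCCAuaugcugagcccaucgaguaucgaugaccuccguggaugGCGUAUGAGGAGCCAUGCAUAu
MIR160c (chr5:19009094-19009182, minus strand): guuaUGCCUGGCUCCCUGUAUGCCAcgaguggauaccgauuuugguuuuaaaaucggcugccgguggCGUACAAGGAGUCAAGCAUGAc
MIR167a (chr3:8108072-8108209): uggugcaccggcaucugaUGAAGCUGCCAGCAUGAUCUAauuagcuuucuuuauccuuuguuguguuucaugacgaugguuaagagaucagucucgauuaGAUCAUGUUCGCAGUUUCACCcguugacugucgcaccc
MIR167c (chr3:1306622-1306781, minus strand): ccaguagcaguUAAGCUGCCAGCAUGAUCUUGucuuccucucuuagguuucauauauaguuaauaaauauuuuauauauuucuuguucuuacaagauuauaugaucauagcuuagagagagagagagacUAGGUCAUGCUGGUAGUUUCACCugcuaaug

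The strands are separated by 39 nt in MIR160a, 42 nt in MIR160c, 61 nt in MIR167a and 97 nt in MIR167c. The 3p strand of MIR167c is 23 nt long, whereas the other strands of these 4 precursors are 21 nt long.

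The sites of the guides in ARF mRNAs are shown to tie the entries to their targets. RefSeq mRNAs of 27444 genes were searched for ungapped matches with a penalty of at most 4, where a mismatch counts 1 and a G:U pair counts 0.5. The miR160 guide had such a site in 5 genes, among them 3 of the 22 ARF genes, and miR167a/b-5p in 20 genes, among them 2 ARF genes. miR167c-5p had one in 19 genes, with the same pair of ARF genes among them, and miR167d in 17 genes, of which ARF8 was the single ARF gene. Among the 3p strands, miR160c-3p had one in 25 genes, including 1 whose name begins with ARF, and the others had none in such a gene. All the ARF sites of the guides lie in coding sequence, and a match of this kind is a description of letters, not a measured cut. In the sites below, capitals mark the bases that are unpaired or in a G:U pair with the guide.
ARF17 (chr1:29274189-29274209), for miR160a/b/c-5p: uggcauGcagggagccaggca
ARF10 (chr2:12115741-12115761), for miR160a/b/c-5p: AggAauacagggagccaggca
ARF16 (chr4:14704141-14704161, minus strand), for miR160a/b/c-5p: GggUUuacagggagccaggca
ARF8 (chr5:14633841-14633861), for miR167a/b-5p: uagaucaGgcuggcagcuuGU
ARF6 (chr1:10686478-10686498, minus strand), for miR167a/b-5p: GagaucaGgcuggcagcuuGU

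Levels are given as RPMR, the reads of a miRNA relative to the reads from fragments of the 45S rRNA in that library, so the amount of rRNA fragments enters each value. Within a library the values were whole multiples of the smallest one, and by that step 1 read was worth 0.240 to 0.896 RPMR. On this basis the libraries held 11040 to 173156 miRNA reads, with the fewest in hyl1-2 at 21 °C (11040 to 13765). The miR160 and miR167 entries together held 67 to 3231 of these reads per library. In whole seedlings, fewer cells that make a miRNA and less of it per cell cannot be told apart. The study describes the libraries of a group as biological replicates, and the p-values measure the spread between them.

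The guide of MIR167a and MIR167b was the most abundant of the 8 entries, with a mean of 258 RPMR over the 18 libraries and rank 15 among the 161 entries. The miR160 guide followed with 49.3 RPMR and rank 38. miR167c-3p had a mean of 28.4 RPMR, miR167a-3p 22.3, miR167c-5p 7.13, miR167d 5.40, miR160c-3p 2.79 and miR160a-3p 1.59 RPMR. In Col-0 at 21 °C the libraries of miR167a/b-5p, of the miR160 guide and of miR167a-3p did not overlap one another, in this falling order. The remaining 5 entries had lower medians, and neighbours in their order overlapped.

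The plot of levels by group shows every library. miR167a/b-5p was at 180, 250 and 233 RPMR in the 3 libraries of Col-0 at 21 °C, and at 560, 1044 and 201 RPMR in those at 27 °C. In hyl1-2 it was at 71.6, 60.1 and 12.3 RPMR at 21 °C and at 140, 128 and 54.7 RPMR at 27 °C. The dcl1-24/hyl1-2 libraries were at 147, 226 and 301 RPMR at 21 °C and at 168, 432 and 436 RPMR at 27 °C. At each temperature every hyl1-2 library was below every library of the other genotypes.

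The miR160 guide was at 28.7, 106 and 49.1 RPMR in Col-0 at 21 °C and at 92.9, 113 and 49.8 RPMR at 27 °C. In hyl1-2 it was at 12.1, 11.7 and 2.38 RPMR at 21 °C and at 15.4, 23.1 and 12.01 RPMR at 27 °C. The dcl1-24/hyl1-2 libraries were at 28.0, 80.2 and 38.5 RPMR at 21 °C and at 40.6, 97.1 and 86.8 RPMR at 27 °C. Again the hyl1-2 libraries lay below all others of their temperature. Both guides had the same order of group medians, with Col-0 above dcl1-24/hyl1-2 at 27 °C, then Col-0 above dcl1-24/hyl1-2 at the lower temperature, and hyl1-2 last, at 27 °C above 21 °C. Neighbours in this order overlapped, apart from the step to the hyl1-2 groups.

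**Figure D1:**
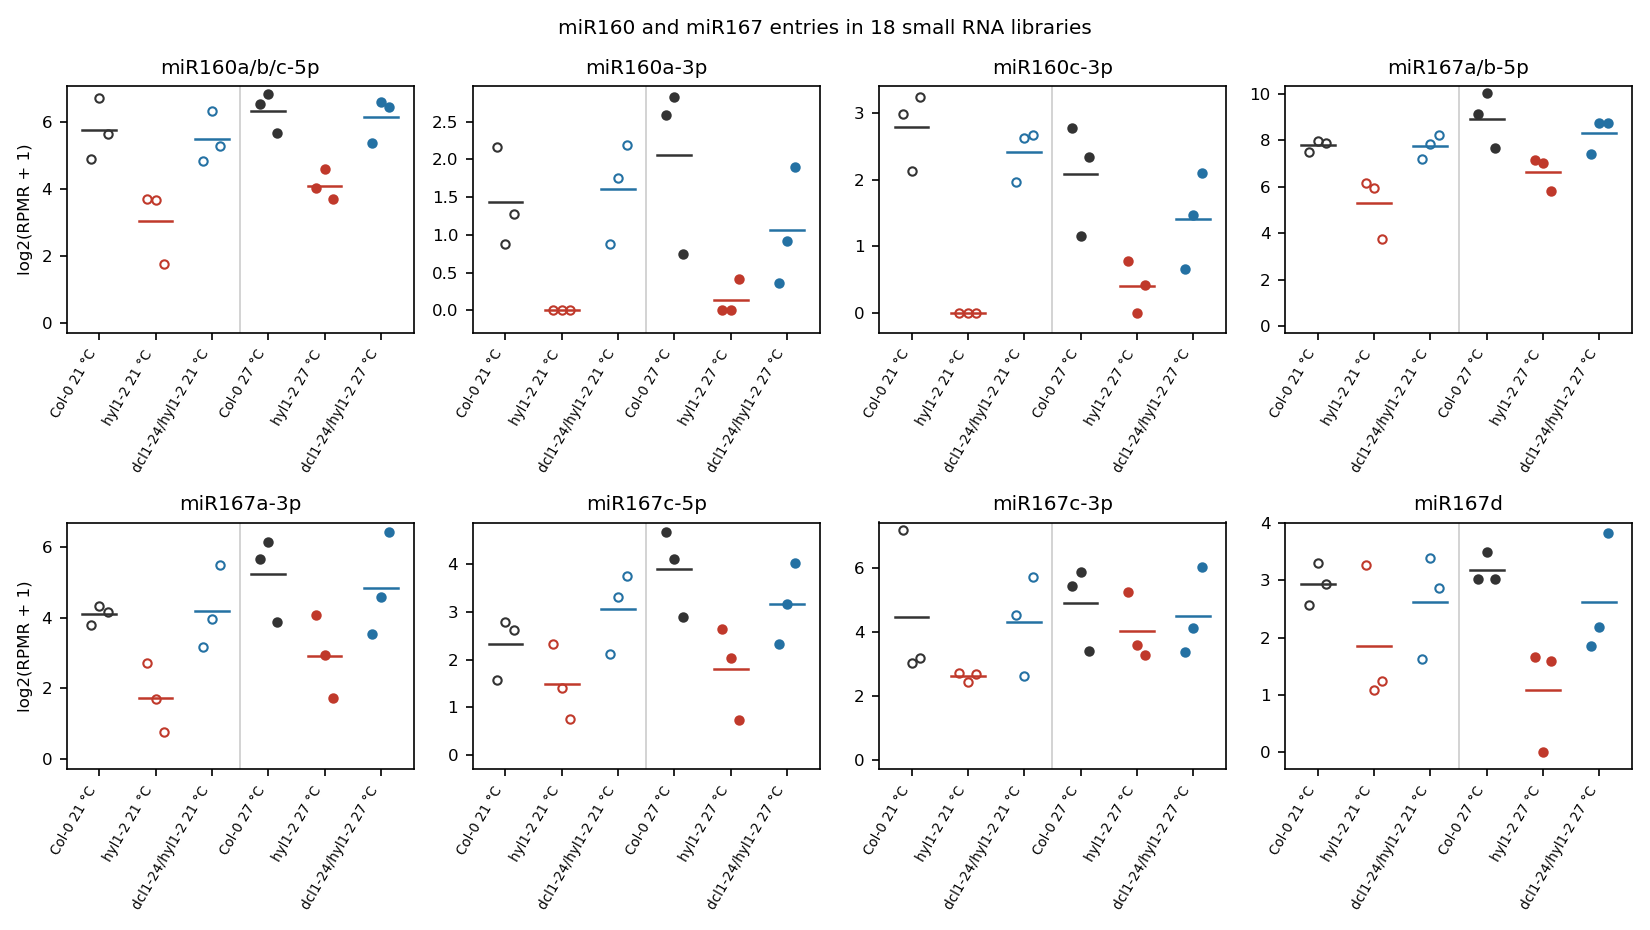
Level of each miR160 and miR167 entry as log2(RPMR + 1) in the 18 libraries. Points are libraries (open at 21 °C, filled at 27 °C), bars are group means, and colours are genotypes. Both miR160 passenger strands are at 0 in every hyl1-2 library at 21 °C, and one Col-0 library at 21 °C stands apart for miR167c-3p.

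The remaining miR167 entries were scattered more widely. miR167a-3p, the passenger strand of MIR167a, was at 12.9, 19.0 and 17.01 RPMR in Col-0 at 21 °C and at 5.55, 2.23 and 0.681 RPMR in hyl1-2. At 27 °C it was at 50.2, 69.8 and 13.7 RPMR in Col-0 and at 15.9, 6.66 and 2.34 RPMR in hyl1-2, where the groups overlapped. In dcl1-24/hyl1-2 it ranged from 7.93 to 43.9 RPMR at 21 °C and from 10.7 to 84.6 RPMR at 27 °C. As for the guide of its duplex, the hyl1-2 median was the lowest at each temperature.

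miR167c-5p was at 1.98, 5.91 and 5.20 RPMR in Col-0 at 21 °C and at 4.03, 1.67 and 0.681 RPMR in hyl1-2, with overlap. At 27 °C it was at 24.7, 16.3 and 6.49 RPMR in Col-0 and at 5.29, 3.11 and 0.667 RPMR in hyl1-2, without overlap. miR167d was at 4.95, 8.87 and 6.62 RPMR in Col-0 at 21 °C and at 8.57, 1.11 and 1.36 RPMR in hyl1-2. One hyl1-2 library thus had miR167d within the range of the wild type. At 27 °C miR167d was at 7.12, 10.2 and 7.17 RPMR in Col-0 and at 2.16, 0 and 2.00 RPMR in hyl1-2. These are low counts, between 0 and 59 reads per library for miR167c-5p and miR167d.

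miR167c-3p was at 145, 7.18 and 8.03 RPMR in Col-0 at 21 °C. The first of these libraries stood far above the others, and the same library was the lowest of the 3 for miR167c-5p. In hyl1-2 at 21 °C miR167c-3p was at 5.55, 4.45 and 5.45 RPMR. At 27 °C it ranged from 9.56 to 57.9 RPMR in Col-0 and from 8.67 to 37.3 RPMR in hyl1-2, with wide overlap. Although the conserved miR167 guide lies on the 5p arm, miR167c-3p was above miR167c-5p in 17 of the 18 libraries, the exception being replicate 2 of dcl1-24/hyl1-2 at 21 °C.

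The miR160 passenger strands were rare. miR160c-3p was at 6.93, 3.38 and 8.51 RPMR in Col-0 at 21 °C and at 2.92, 5.19 and 5.38 RPMR in dcl1-24/hyl1-2. miR160a-3p was at 3.47, 0.845 and 1.42 RPMR in Col-0 and at 0.835, 2.36 and 3.58 RPMR in dcl1-24/hyl1-2 at this temperature. Both were at 0 in all 3 hyl1-2 libraries at 21 °C, each of which held 67 to 213 reads of the 2 families. A count of 0 over the group allows up to 3 reads, or 0.446 RPMR. Against that limit, with the reads of each group pooled, miR160c-3p was at least 13.8-fold higher and miR160a-3p at least 4.13-fold higher in Col-0, from 40 and 12 reads. In dcl1-24/hyl1-2 they were at least 9.55-fold and 4.38-fold higher, from 24 and 11 reads. The counting error of these reads is not part of the bounds. At 27 °C the hyl1-2 libraries held 1 read of miR160a-3p in all, against 29 in Col-0, a ratio of 35.1 with an exact 95% interval from 5.82 to 1434. For miR160c-3p they held 4 reads against 29 in Col-0, a ratio of 8.78 with an interval from 3.08 to 34.4. Limits and intervals cover counting error only.

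The comparison of hyl1-2 with Col-0 asks how far each miRNA depends on HYL1. Both guides fell strongly at 21 °C, by 2.71 on the log2 scale for miR160a/b/c-5p and by 2.5 for miR167a/b-5p. Their partners miR160a-3p, miR160c-3p and miR167a-3p fell too, as did miR167c-3p, so that 6 of the 8 entries were lower. At 27 °C 7 of 8 were lower, the guides by 2.24 and 2.29, and miR167c-3p was the entry that did not pass. No entry was higher at either temperature. On all 139 entries tested, 59.7% were called lower at 21 °C and 54% at 27 °C, so the counts stand against a general fall of miRNAs in this mutant.

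Fold changes were fitted with limma on log2(RPMR + 1) over the 139 entries whose mean reached 1 RPMR, with two-sided p-values adjusted by Benjamini-Hochberg over those entries and a call at adjusted p under 0.05. All 8 entries passed the filter. At 21 °C the difference was -2.71 (SE 0.75, adjusted p = 0.00102) for miR160a/b/c-5p and -2.5 (SE 0.73, adjusted p = 0.00202) for miR167a/b-5p. miR167a-3p changed by -2.38 (SE 0.76, adjusted p = 0.00471) and miR167c-3p by -1.85 (SE 0.80, adjusted p = 0.0395). The fitted differences of the miR160 passenger strands, -2.79 for miR160c-3p (adjusted p = 2.86e-05) and -1.44 for miR160a-3p (adjusted p = 0.0159), rest on the added 1 RPMR, since the hyl1-2 libraries were at 0. miR167c-5p differed by -0.83 (SE 0.70, adjusted p = 0.299) and miR167d by -1.08 (SE 0.68, adjusted p = 0.163), neither of which passed.

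The median over the 8 entries was -2.11 at 21 °C, beside -1.95 over all entries tested, and -2.21 with the miR160 passenger strands at their limits. Libraries of hyl1-2 lay wholly below those of Col-0 for 6 of 8 entries, as for 66.2% of all entries. The miR167c-3p call rested on the Col-0 library that stood apart: without replicate 1 of Col-0 at 21 °C the difference was -0.49 (adjusted p = 0.658). Without replicate 3 of hyl1-2, the lowest library for both guides and for miR167a-3p, 2 entries passed, miR160a/b/c-5p and miR160c-3p, and miR167a/b-5p was at -1.72 (adjusted p = 0.0565).

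At 27 °C the differences were -2.24 (SE 0.75, adjusted p = 0.00784) for miR160a/b/c-5p, -2.29 (SE 0.73, adjusted p = 0.00602) for miR167a/b-5p and -2.32 (SE 0.76, adjusted p = 0.00721) for miR167a-3p. miR167c-5p and miR167d, which had not passed at 21 °C, differed by -2.09 (SE 0.70, adjusted p = 0.00785) and -2.10 (SE 0.68, adjusted p = 0.00669). miR160a-3p differed by -1.92 and miR160c-3p by -1.69, and both passed. miR167c-3p differed by -0.86 (SE 0.80, adjusted p = 0.367). The median was -2.09, beside -1.62 over all entries, and libraries did not overlap for 6 of 8 entries, as for 54.7% of all. Without replicate 3 of hyl1-2 at 27 °C, 4 entries passed, and miR167a/b-5p was at -1.86 (adjusted p = 0.0552), as it was at -1.75 (adjusted p = 0.0736) without replicate 2 of Col-0.

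**Figure D2:**
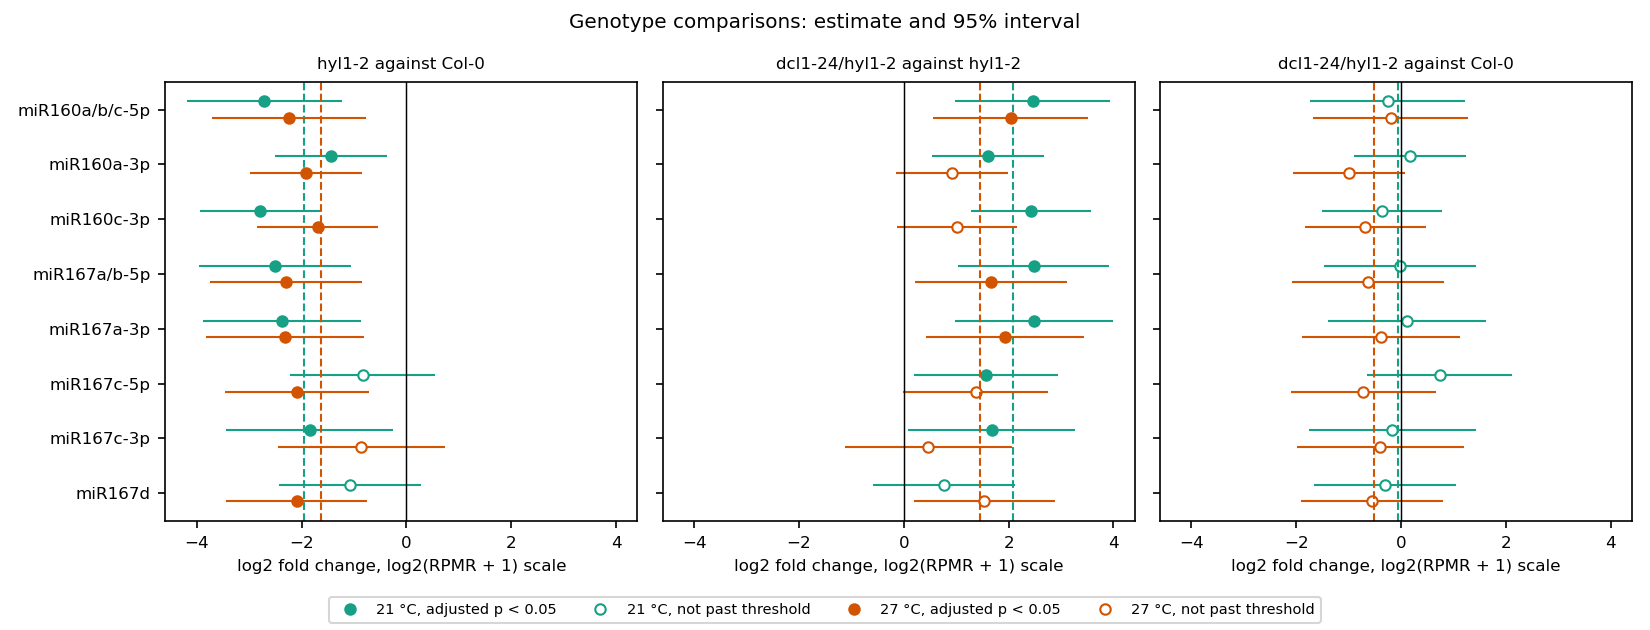
Difference between genotypes on the log2(RPMR + 1) scale for each entry, with 95% intervals from limma, at 21 °C (green) and 27 °C (orange). Filled points passed adjusted p under 0.05, and dashed lines are the medians over all 139 entries tested. The entries lie on both sides of the dashed lines in the hyl1-2 comparisons, except in hyl1-2 against Col-0 at 27 °C. There all but miR167c-3p lie below the line. In dcl1-24/hyl1-2 against Col-0 all intervals include 0.

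The suppressor comparison asks whether dcl1-24 returns miRNA levels in the hyl1-2 background. At 21 °C 7 of the 8 entries rose relative to hyl1-2 when dcl1-24 was present, the guides by 2.46 on the log2 scale for miR160a/b/c-5p and 2.47 for miR167a/b-5p, and miR167d was the exception. At 27 °C 3 entries passed, namely both guides and miR167a-3p. Over all entries 79.9% were called higher at 21 °C and 47.5% at 27 °C. No entry of the 2 families was lower.

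At 21 °C the differences were 2.46 (SE 0.75, adjusted p = 0.00254) for miR160a/b/c-5p, 2.47 (SE 0.73, adjusted p = 0.00212) for miR167a/b-5p and 2.49 (SE 0.76, adjusted p = 0.00273) for miR167a-3p. miR167c-5p rose by 1.57 (adjusted p = 0.0344) and miR167c-3p by 1.68 (adjusted p = 0.0477). The miR160 passenger strands, at 0 in hyl1-2, had fitted differences of 2.43 for miR160c-3p and 1.61 for miR160a-3p, and both passed. miR167d differed by 0.77 (SE 0.68, adjusted p = 0.281). The median was 2.05, beside 2.09 over all entries, and 2.29 with the passenger strands at their limits. Libraries did not overlap for 5 of 8 entries, as for 70.5% of all.

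At 27 °C the difference was 2.04 (SE 0.75, adjusted p = 0.0184) for miR160a/b/c-5p and 1.94 (SE 0.76, adjusted p = 0.0282) for miR167a-3p. miR167a/b-5p differed by 1.66 (SE 0.73) with an adjusted p of 0.04999, and miR167d by 1.54 (SE 0.68) with an adjusted p of 0.0502, so these 2 lay on opposite sides of the threshold with nearly the same value. miR167c-5p differed by 1.37 (adjusted p = 0.0887), miR160c-3p by 1.01, miR160a-3p by 0.92 and miR167c-3p by 0.46. The median was 1.45, beside 1.46 over all entries, and libraries did not overlap for 3 of 8, as for 51.8% of all. The count of 3 was not firm: it was 0 without replicate 3 of hyl1-2 or without replicate 3 of dcl1-24/hyl1-2, 1 without replicate 2 of either, 5 without replicate 1 of hyl1-2 and 7 without replicate 1 of dcl1-24/hyl1-2, which was the lowest library of its group for all 8 entries.

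Against Col-0 itself, none of the 8 entries of dcl1-24/hyl1-2 passed by limma at either temperature, and none had an unadjusted p under 0.05, while 21.6% of all entries at 21 °C and 26.6% at 27 °C were called in one direction or the other. The differences ranged from -0.36 to 0.73 on the log2 scale at 21 °C and from -0.996 to -0.20 at 27 °C. For miR160a/b/c-5p the interval at 21 °C was -1.73 to 1.22 and at 27 °C -1.68 to 1.27, and for miR167a/b-5p it was -1.47 to 1.42 and -2.08 to 0.82. Changes of up to about these bounds cannot be seen with 3 libraries a group. All 8 differences were below 0 at 27 °C, with a median of -0.59 beside -0.52 over all entries, as were all 8 on the summed miRNA scale (median -0.81), while 2 of 8 were below 0 on the sum without miR5026 and 5 of 8 with median-of-ratios scaling. Without replicate 3 of Col-0 at 27 °C, 1 entry passed there. Since these 3 genotype comparisons share libraries, their values are given side by side only.

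The falls in hyl1-2 are relative to the 45S rRNA scale. The 8 entries made up 0.743 to 1.27% of the summed miRNA RPMR in Col-0 at 21 °C and 0.607 to 1.76% in hyl1-2. At 27 °C they made up 1.25 to 1.88% in Col-0 and 1.03 to 1.66% in hyl1-2, and in dcl1-24/hyl1-2 0.432 to 1.21% at 21 °C and 0.823 to 1.10% at 27 °C. The share thus overlapped between Col-0 and hyl1-2. A single miRNA, miR5026, took 1.37 to 4.26% of the sum in Col-0, 22.4 to 50.0% in hyl1-2 and 37.2 to 64.4% in dcl1-24/hyl1-2, which enters any scale based on the sum.

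The fits were therefore repeated on 3 scales made from the miRNAs themselves: the summed RPMR, the sum without miR5026, and median-of-ratios factors. Those factors used the 69 entries above 0 in every library. Such scales take out a change shared by most miRNAs, so a difference on them is one relative to the other miRNAs. The number of entries called in hyl1-2 against Col-0 went from 6 to 2 at 21 °C on each of these scales. The fitted median of the 8 entries moved to 0.13, 0.68 and -0.07, and that of all entries to -0.21, 0.21 and -0.36. On the summed scale miR160a/b/c-5p differed by less than its SE and miR167a/b-5p was at 0.32. On the summed and the median-of-ratios scale the pair still called was miR160c-3p and miR160a-3p, at -2.22 and -1.03 on the former. On the scale without miR5026 the pair was miR160c-3p, at -1.78, and miR167c-5p, which was then higher at 1.63 (adjusted p = 0.0216). At 27 °C the counts were 1, 0 and 1, where the single entry was miR160a-3p. In dcl1-24/hyl1-2 against hyl1-2, 2 entries were called on each scale at 21 °C, again miR160c-3p and miR160a-3p, and 0 at 27 °C. Neither miR160a/b/c-5p nor miR167a/b-5p passed the threshold against Col-0 on any of these 3 scales. The calls of miR160c-3p and miR160a-3p at 21 °C compare with libraries at 0, which stay at 0 on every scale, so their sizes rest on the added 1 RPMR. At the share they had of the miRNA reads of Col-0, the 36932 miRNA reads of hyl1-2 at 21 °C would have held 5.52 reads of miR160c-3p and 1.66 of miR160a-3p, too few for the absence of miR160a-3p to show a lower share. At 27 °C the 124785 miRNA reads of hyl1-2, of which replicate 1 held 77936, would have held 10.6 reads of each strand. Seen there were 1 read of miR160a-3p and 4 of miR160c-3p.

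**Figure D3:**
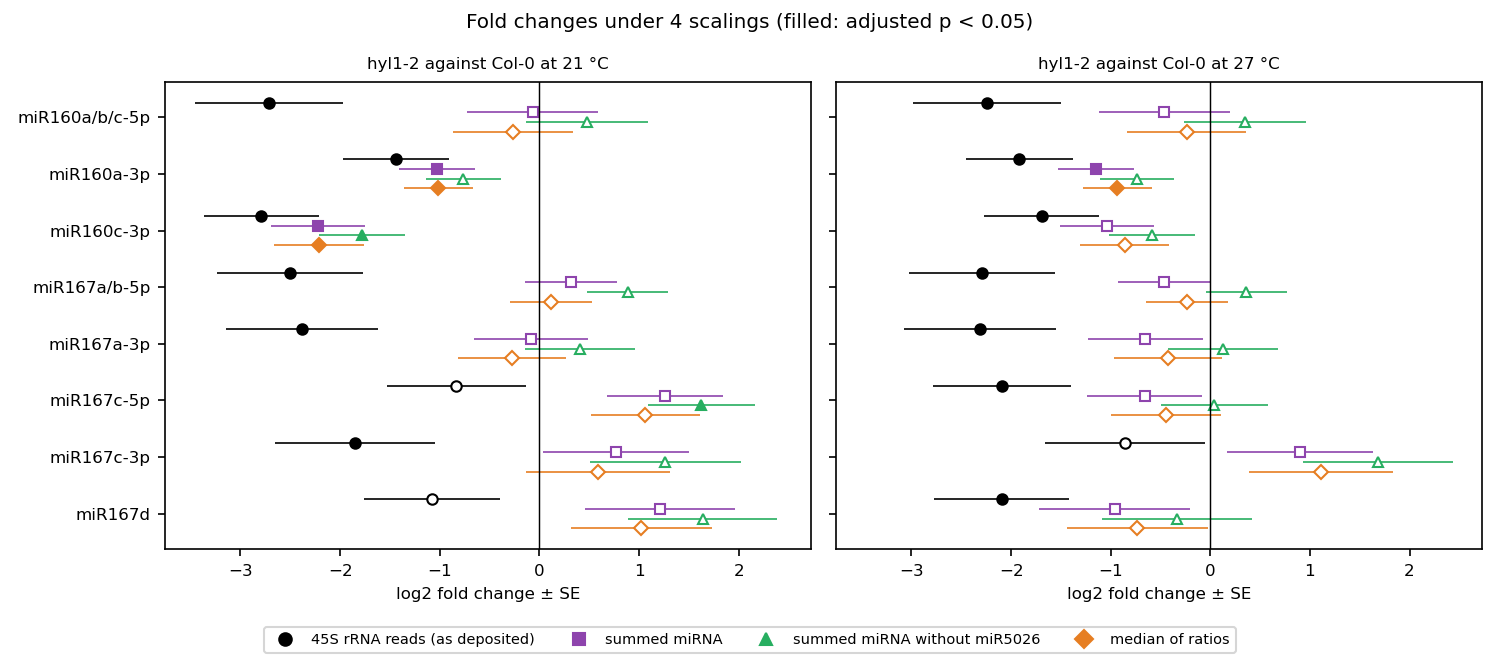
Difference between hyl1-2 and Col-0 on the log2 scale, with SE, at 21 °C and 27 °C under the deposited 45S rRNA scale and 3 scales made from the miRNAs. Filled symbols passed adjusted p under 0.05. On the deposited scale all entries are below 0, and on the others miR160a/b/c-5p and miR167a/b-5p lie nearer to 0. On those scales miR167c-5p and miR167d lie above 0 at 21 °C, and miR167c-3p lies above 0 at both temperatures. miR160c-3p and miR160a-3p, with hyl1-2 libraries at or near 0, stay below.

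Ratios of 2 entries within a library do not depend on the scale, apart from the added 1 RPMR, and they ask whether the strands or the loci changed apart from each other. Across 7 ratios and 3 pairs of genotypes, none of the 21 differences passed in exact two-sided permutation tests of the genotype labels within temperature, where 400 arrangements allow a smallest p of 0.005. With 5 RPMR added in place of 1, 8 of the 21 passed, so this count depends on the added value. For the strands of the MIR167a duplex the Col-0 ratios lay close together. The miR167a/b-5p level was 13.2 to 14.0 times that of miR167a-3p in the 3 Col-0 libraries at 21 °C and 11.2 to 15.0 times at 27 °C. In hyl1-2 this ratio was 12.9 to 27.0 at 21 °C and 8.82 to 23.4 at 27 °C, and in dcl1-24/hyl1-2 6.86 to 18.5 and 5.15 to 18.6. The ranges were wider in both mutants and overlapped those of the wild type. At 21 °C miR167a-3p had 26, 45 and 36 reads in Col-0, 11, 4 and 2 in hyl1-2, and 19, 31 and 49 in dcl1-24/hyl1-2. Counting error thus enters the widths of these ranges, most of all in hyl1-2, and its part was not tested. MIR167b contributes to the guide level as well, so this is not the ratio of a single duplex.

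miR160a/b/c-5p was 0.160 to 0.422 times miR167a/b-5p in Col-0 at 21 °C, 0.169 to 0.194 times in hyl1-2 and 0.128 to 0.356 times in dcl1-24/hyl1-2, with overlapping ranges. At 27 °C the ratio was 0.108 to 0.248, 0.110 to 0.220 and 0.199 to 0.241 in the same order. The smallest p of the 21 belonged to miR167c-5p relative to miR167a/b-5p, which was 0.93 higher on the log2 scale in hyl1-2 than in Col-0 (exact permutation p = 0.055, adjusted p = 0.49). This value averages both temperatures. Without the added 1 RPMR, the ratio at 21 °C was 0.011 to 0.024 in Col-0 and 0.028 to 0.056 in hyl1-2. At 27 °C it was 0.016 to 0.044 and 0.012 to 0.038, with overlap. The hyl1-2 libraries held 2 to 22 reads of miR167c-5p, so the added value enters this difference as well. Ratios to the miR160 passenger strands are not read here, since miR160a-3p was at 0 in 5 and miR160c-3p in 4 of the 6 hyl1-2 libraries and the added value sets them. For miR167c the 5p strand was 0.0137 to 0.823 times the 3p strand in Col-0 at 21 °C, a range set by the library with 145 RPMR of miR167c-3p, and 0.125 to 0.727 times in hyl1-2.

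**Figure D4:**
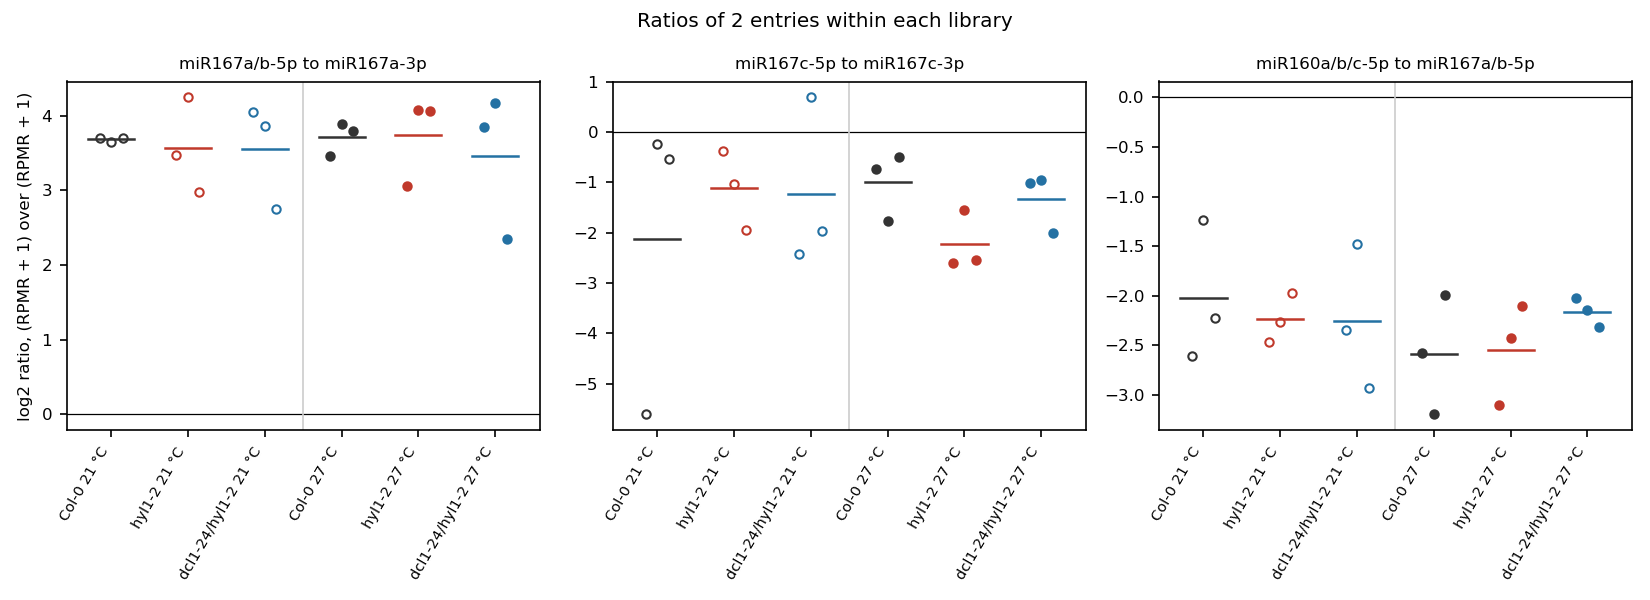
Log2 ratio of 2 entries within each library, with 1 RPMR added to each: the miR167 guide to miR167a-3p, miR167c-5p to miR167c-3p, and the miR160 guide to the miR167 guide. Points are libraries (open at 21 °C, filled at 27 °C) and bars are group means. The Col-0 libraries at 21 °C lie within 3.65 to 3.70 in the first panel, and most miR167c libraries lie below 0 in the second.

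The temperature comparison asks whether the warmth that elongates seedlings changes these regulators of auxin response. No entry passed in any genotype by limma, apart from 1 in Col-0 with array weights. In Col-0 7 of 8 estimates were above 0, with a median of 0.61 beside 0.18 over all entries, and 0.719% of all entries were called. The largest difference was that of miR167c-5p, 1.57 (SE 0.70, unadjusted p = 0.0262, adjusted p = 0.364), whose libraries did not overlap between the temperatures, as for 5.76% of all entries in this direction. miR167a/b-5p differed by 1.16 (SE 0.73, adjusted p = 0.691) and miR160a/b/c-5p by 0.59 (SE 0.75, adjusted p = 0.835). Replicate 3 of Col-0 at 27 °C was the lowest of its group for 6 of the 8 entries and lay within the 21 °C range for both guides.

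In hyl1-2 the differences ranged from -0.78 to 1.43 with a median of 0.73 beside 0.58 over all entries, of which 0% were called and 16 had an unadjusted p under 0.05. The highest was miR167c-3p at 1.43 (adjusted p = 0.423), with libraries that did not overlap, as for 16.5% of all entries, and miR167a/b-5p was at 1.37 (adjusted p = 0.423). With dcl1-24 present they ranged from -1.01 for miR160c-3p to 0.65 for miR167a-3p, with 1.44% of all entries called. The response to temperature itself was compared between genotypes for each pair, and 0 of 139 entries passed in any of the 3 comparisons by limma (4, 1 and 4 had an unadjusted p under 0.05, with none of the 8 among them). Whether miR167c-5p and miR167d depend on HYL1 more at 27 °C than at 21 °C is thus not shown by the calls above.

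**Figure D5:**
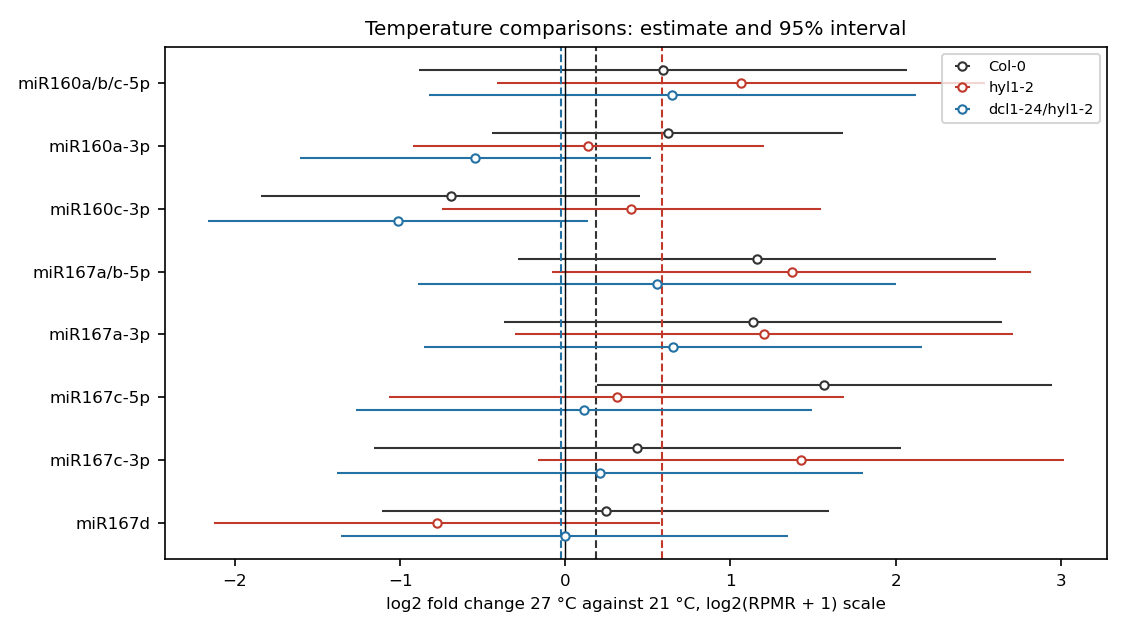
Difference between 27 °C and 21 °C on the log2(RPMR + 1) scale with 95% intervals for each entry in the 3 genotypes. Open points did not pass the threshold, and dashed lines are medians over the 139 entries tested. No entry passed in any genotype, and the Col-0 estimate of miR167c-5p, 1.57, is the highest.

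The other miRNAs of the auxin pathway in the table are 6 entries of miR390, which triggers small interfering RNAs that act on further ARF mRNAs, miR393, of which both entries are 3p strands and not the strand that targets the auxin receptor TIR1, and miR847. Of these, 5 passed the filter, and miR847, with a mean of 0.600 RPMR, did not. In hyl1-2 against Col-0, 2 of the 5 were lower at each temperature, and none was higher, beside 59.7% and 54% of all entries. They were miR390a-3p, by -2.20 (adjusted p = 0.00240) at 21 °C and -2.85 at 27 °C, and miR393a-3p, by -2.36 (adjusted p = 0.000405) and -1.90. The miR390 guide, miR390a-5p and b-5p, differed by -1.53 (adjusted p = 0.0666) at 21 °C. In dcl1-24/hyl1-2 against hyl1-2, 3 of the 5 were higher at 21 °C, including the miR390 guide at 1.78, and 1 at 27 °C, beside 79.9% and 47.5% of all entries. These directions also depend on the scale: with summed miRNA RPMR, 0 of the 5 were lower and 2 higher in hyl1-2 against Col-0 at 21 °C, namely the miR390 guide and miR393b-3p, and the same pair was lower in dcl1-24/hyl1-2 against hyl1-2. In the temperature comparisons none of the 5 passed.

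Over the 18 libraries the 8 entries resembled each other in different degrees. The 28 pairs had a median Pearson correlation of 0.672 on log2(RPMR + 1), with a range from 0.285 to 0.941, beside a median of 0.549 over all pairs of tested entries. All points share the depth and the 45S rRNA reads of their library, and the genotype groups alone draw levels together, so these are descriptions. miR167a/b-5p was closest to miR167a-3p (0.941) and to the miR160 guide (0.938), and miR167c-3p and miR167d were least alike (0.285). Outside the families, the entries most like the miR160 guide were miR396a-5p (0.966), miR394a and b-5p (0.928) and miR472-3p (0.914). Those most like miR167a/b-5p were miR396b-5p (0.956), miR472-3p (0.9501) and miR394a and b-5p (0.948). For miR167c-5p they were miR472-3p (0.874), miR390a-5p and b-5p (0.850) and miR164a and b-5p (0.846). For miR167d they were the entry of miR5995b and miR5595a (0.813), miR775 (0.713) and miR824-3p (0.697).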

How the data were processed

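Small RNA was gel-purified from whole seedlings and sequenced. The authors trimmed reads with cutadapt 3.0, placed them on the Araport11 genome by exact match in ShortStack, and tested miRNAs with DESeq2 1.35.0 (both versions per the submitters' processing notes). The deposited values are a form of RPM, the reads of each miRNA scaled by the authors to the 45S rRNA reads of the library (RPMR). The steps between values were whole to within 1.1e-10, but no column had more than 93 values of up to 20 reads. Read counts were therefore taken as implied by the steps, and no differential test was run on them. The implied reads served for depth and for the limits, exact intervals and expected reads of the miR160 passenger strands.

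Fold changes came from limma 3.58.1 in R 4.3.3 with 6 group means, a variance trend and all 18 libraries. Ratios and figures used Python 3.11.15 with numpy 2.4.6, pandas 2.3.3, scipy 1.17.1 and matplotlib 3.10.9. The scripts were tested on simulated data. The named miRNAs are all 8 entries, all of miR390, miR393 and miR847, and the 3 other entries with the highest correlation to each guide strand. These members and lists were chosen with earlier results of these data known. Groups came from the sample labels. The alternatives tried were a pseudocount of 0.5 or 5 in place of 1, a filter at 5 RPMR or none, 3 other scalings, a replicate block, only the groups compared, array weights, the study's threshold (unadjusted p under 0.01 and a fold change over 2), and leaving out each library.

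Deviations of same-numbered libraries were correlated in all 15 pairs of groups. All 3 numbers were over 0.1 in 2 of them, Col-0 with hyl1-2 at 27 °C (0.16 to 0.48) and 21 °C with 27 °C in dcl1-24/hyl1-2 (0.14 to 0.27). Any pairing there rests on the values, as no label says what a number shares. The mRNA sequencing of the study was not analysed here.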

Additional observations from a re-analysis of the deposited data

How the results depend on the processing

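With 3 libraries a group and as few as 67 reads of both families in a library, small changes cannot be seen, and the low passenger strands are limited by counts of 0 to 18 reads a library. Of the log2 differences computed under alternatives other than leaving out a library, 219 kept their direction and their side of the threshold, 43 lost the threshold, 8 passed it and 42 turned direction. Without single libraries, 515 kept both, 46 lost the threshold, 14 passed it and 1 turned. Leaving out a library outside the groups compared cannot change a difference, only its SE and p-value. The same holds for the other filters, the replicate block and the fit of only the groups compared. Such fits kept their direction by construction, so these counts do not measure how stable it is. The causes were not tested.

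The scalings, given in the order summed miRNAs, the sum without miR5026 and median-of-ratios, moved the counts of entries called. They take out a change shared by most miRNAs, so lost calls and turned signs concern levels relative to the other miRNAs. In hyl1-2 against Col-0 the 21 °C counts were 2, 2 and 2 and those of 27 °C were 1, 0 and 1. For dcl1-24/hyl1-2 against hyl1-2 the counts were 2, 2 and 2, then 0, 0 and 0 in the warm. Over all entries, lower against higher calls in hyl1-2 against Col-0 at 21 °C were 83 against 1 as deposited, and 28 against 25, 23 against 33 and 35 against 21 on these scales. At 27 °C they were 75 against 2, and 30 against 16, 15 against 29 and 23 against 19. For dcl1-24/hyl1-2 against hyl1-2 at 21 °C the split was 3 against 111 as deposited, then 23 against 21, 13 against 23 and 10 against 40. The split in the warm was 4 against 66, then 8 against 4, 7 against 18 and 5 against 18.

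Log2 differences that turned in hyl1-2 against Col-0 at 21 °C were, on all 3 scales in that order, 0.32, 0.89 and 0.12 for miR167a/b-5p, 1.26, 1.62 and 1.06 for miR167c-5p, 0.77, 1.27 and 0.59 for miR167c-3p, and 1.21, 1.64 and 1.02 for miR167d. Without miR5026 alone, miR160a/b/c-5p was at 0.48 and miR167a-3p at 0.41. At 27 °C miR167c-3p was at 0.90, 1.68 and 1.11, and without miR5026 alone miR160a/b/c-5p was at 0.35, miR167a/b-5p at 0.36, miR167a-3p at 0.13 and miR167c-5p at 0.041.

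In dcl1-24/hyl1-2 against hyl1-2 at 21 °C the turned values on all 3 scales were -0.86, -0.57 and -0.30 for miR167c-5p, -1.24, -0.91 and -0.60 for miR167c-3p, and -1.68, -1.43 and -1.17 for miR167d. On the first and second scale miR160a/b/c-5p was at -0.46 and -0.14 and miR167a/b-5p at -0.64 and -0.29, and on the first miR167a-3p was at -0.089. At 27 °C miR167c-3p was at -1.53, -1.17 and -1.04, miR167a/b-5p at -0.44 and -0.038 on the first and second, and on the first miR160a/b/c-5p was at -0.0049 and miR167c-5p at -0.26. Leaving out single libraries, miR167c-3p ranged from -0.30 to 1.07 there.

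In dcl1-24/hyl1-2 against hyl1-2 at 27 °C the count of 3 became 7 with array weights, 5 with only the groups compared and 1 at the study's threshold. Array weights gave 1 entry against Col-0 at 27 °C and 1 in Col-0 between temperatures. With a pseudocount of 5, 8 of the 21 ratio differences passed. Leaving out 1 library gave 2 to 6 and 4 to 7 entries in hyl1-2 against Col-0 at 21 and 27 °C, 5 to 7 and 0 to 7 in dcl1-24/hyl1-2 against hyl1-2, and 0 to 1 against Col-0 at 27 °C.

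The paired fit with a replicate block called 6 and 7 entries in hyl1-2 against Col-0, 7 and 3 in dcl1-24/hyl1-2 against hyl1-2, and 0 in each other comparison, the same counts as without it.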
